A study of Mus musculus with 6 samples.

Results

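The genes described here encode aminoacyl-tRNA synthetases, the enzymes that attach amino acids to their tRNAs. They were followed in CD4+ T cells from the spleen of naive wild-type C57BL/6 mice, labelled with the division dye CFSE. Both groups received IL-2 (200 U) together with antibodies to CD3 and CD28 for 48 h. In 3 libraries the cells were exposed to 5 mM itaconate, a dicarboxylate made by activated macrophages, and in the 3 controls to 5 mM NaCl. Of 36 listed genes, 35 were found by name among the 55401 entries of the deposited table, 19 of them for cytosolic or dual enzymes and 16, with names ending in 2, for mitochondrial enzymes. The listed gene Mars has no row under that name, and Mars1, its symbol in RefSeq, is given apart. All 35 passed the filter on low values (a mean of 10) and entered the test of 13180 entries.

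Each synthetase recognises an amino acid and the tRNAs that carry it, and the charged tRNA is the substrate of the ribosome. Animal cells keep separate sets for the cytosol and for the mitochondrion, where a small ribosome makes subunits of the respiratory chain, although Gars and Kars supply both compartments from the same gene. Several cytosolic enzymes sit in the multisynthetase complex, held by the scaffold proteins of Aimp1, Aimp2 and Eef1e1, whereas the others are free. Many cytosolic synthetase genes are known targets of ATF4, the transcription factor of the amino acid response, and activated T cells raise protein synthesis as they grow. Uncharged tRNA activates the kinase GCN2, which raises translation of ATF4.

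The values are normalized estimated counts, scaled between libraries, and each library held between 20074300 and 24144999 estimated reads in genes, if its commonest low value stands for 1 read. The control columns are coded NAC, and their identity as NaCl rests on NaCl being the other treatment of the labels. The labels do not say whether different mice or cultures gave the replicates, so the p-values reflect only how these 6 samples vary, and that variation may be technical. All 8 T cell markers listed for these cells were measured, and 5 were higher with itaconate, among them Cd4 (9519 in NaCl and 13507 with itaconate). Cd3g was lower (log2 fold change −0.44, adjusted p = 0.00217), and Cd5 and Cd3d did not pass. The summed B cell markers ran from 173 to 303 with itaconate and from 224 to 304 in NaCl, and the CD8 T cell markers from 308 to 365 and from 363 to 408. Myeloid markers summed to between 56.1 and 90.5 in NaCl and between 154 and 198 with itaconate, where Itgam and Cd68 were higher. NK and erythroid markers summed to at most 2.05 and 3.01, with Klre1 and Hba-a1 at 0 in every library. The part of these other cells in the synthetase values was not tested, and in bulk RNA fewer cells of a type and less RNA per cell cannot be told apart.

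Most cytosolic synthetase mRNAs were lower with itaconate. Of 19 cytosolic members 11 fell, 1 rose and 7 did not pass (limma on log2(value + 1), Benjamini-Hochberg adjusted p under 0.05 over all tested genes). Over all tested genes 36% passed, 17.8% lower and 18.2% higher with itaconate. The median log2 fold change of the cytosolic members was −0.43, beside −0.00088 over all tested genes. Summed over the 19 genes, the values were 91543, 79867 and 76228 in itaconate replicates 1, 2 and 3 and 112804, 101708 and 97386 in the controls. Every itaconate sum lay below every control sum. The sums made 0.387% ± 0.037 of all values with itaconate and 0.479% ± 0.042 in NaCl (SD, n = 3). The number of cytosolic members that fell was between 9 and 13 when each library was left out in turn.

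**Figure D1:**
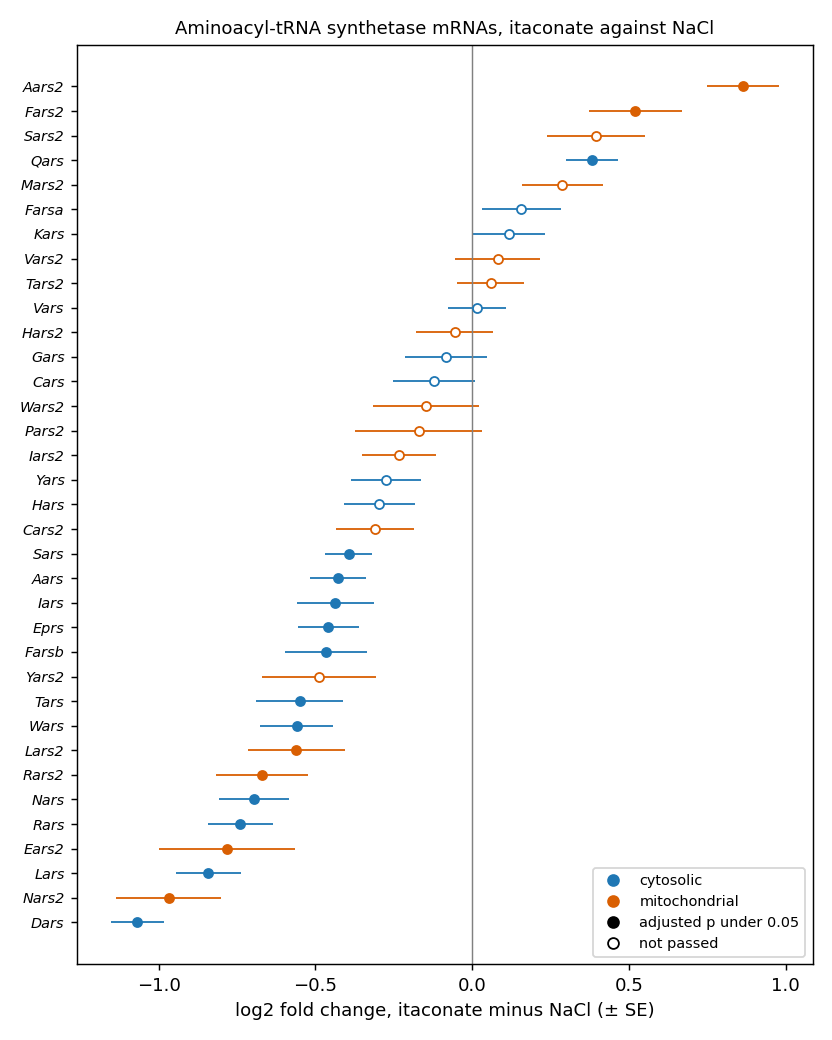
Log2 fold change of each of the 35 synthetase genes, itaconate minus NaCl, with its standard error; blue marks cytosolic and orange mitochondrial enzymes, and filled points passed the test. Dars lies lowest at −1.07 and Aars2 highest at 0.86.

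Within the multisynthetase complex, Dars showed the largest change of any member. Dars encodes aspartyl-tRNA synthetase and lies on chromosome 1 at 128363707 to 128417368 on the minus strand of GRCm38. Its values were 2005, 1909.8 and 1892 with itaconate and 4173, 4202 and 3816 in NaCl. The groups were far apart, and the log2 fold change was −1.07 ± 0.084 (SE, adjusted p = 3.24e-06). Lars, the leucyl-tRNA synthetase that also senses leucine for mTORC1, had values of 2941, 2654 and 2850.2 with itaconate and 5867, 4469 and 4884 in NaCl. It fell by 0.84 ± 0.10 on the log2 scale (adjusted p = 7.15e-05), again with no overlap between the groups. Rars, which charges arginine, fell by 0.74 ± 0.10 (adjusted p = 1.74e-04), from 2078 ± 202 to 1243 ± 89.3 (SD, n = 3). Eprs, a fused enzyme for glutamate and proline, went from 12057, 11740.3 and 9814 in the controls to 8740.3, 8175 and 7490.5 (log2 fold change −0.46 ± 0.098, adjusted p = 0.00305).

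Iars, the isoleucine enzyme of the complex, had the lowest control at 6788 and the highest itaconate value at 6879, so its groups overlapped. Its log2 fold change of −0.44 ± 0.12 passed (adjusted p = 0.0149), but missed the threshold when itaconate replicate 2 was left out (0.0571), and likewise for NaCl replicate 1 (0.0561) and NaCl replicate 2 (0.0654). Its adjusted p ran from 4.66e-04 to 0.0981 across the alternatives. Of the 31-base words of the Iars transcript, 17.7% also occur in transcripts of other genes, Gm4849 first among them, and RSEM can divide such reads between copies.

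Qars moved the other way and was the only cytosolic member that rose. It encodes the glutamine enzyme of the complex and lies on chromosome 9 at 108507706 to 108515941. Its values were 6521, 6437 and 5805 with itaconate and 4914, 4856 and 4614 in NaCl. All 3 itaconate libraries lay above the controls (log2 fold change 0.38 ± 0.082, adjusted p = 0.00323). Kars, the lysine enzyme that serves both compartments, was at 0.12 ± 0.12 and did not pass (adjusted p = 0.458). Of the 7 measured enzymes of the complex 5 thus fell, 1 rose and 1 did not pass, with a median log2 fold change of −0.46. Mars1, the methionine enzyme of the complex that the rule did not match, was at −0.11 ± 0.099 (adjusted p = 0.395). Its exons overlap those of Ddit3 on the opposite strand by 68 bases.

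The scaffold genes of the complex did not move alike. Aimp2 had values of 328, 299.8 and 283 with itaconate and 538, 529 and 541 in NaCl, and fell by 0.82 ± 0.13 on the log2 scale (adjusted p = 4.03e-04). Aimp1 stayed within its spread, with 2972 ± 132 and 2957 ± 154 (SD, n = 3; log2 fold change 0.0078 ± 0.085). Eef1e1 was at −0.19 ± 0.14 (adjusted p = 0.339).

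Among the 12 free cytosolic synthetases 6 fell, 0 rose and 6 did not pass, with a median log2 fold change of −0.35. Nars, for asparagine, had the largest change of them, from 10809, 8589 and 8408 in NaCl to 6468, 5398 and 5268 (log2 fold change −0.70 ± 0.11, adjusted p = 4.80e-04). Every control library lay above every itaconate library. Wars, the tryptophan enzyme that interferon gamma induces in many cells, fell by 0.56 ± 0.12 (adjusted p = 0.00271). Its values were 1627, 1589 and 2071 with itaconate and 2869.8, 2354 and 2539.8 in NaCl, so itaconate replicate 3 came nearest the controls.

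Tars, for threonine, fell by 0.55 ± 0.14 (adjusted p = 0.00802), from 4148, 3394 and 3172 to 3045, 2201 and 2123. Aars, for alanine, fell by 0.43 ± 0.089 (adjusted p = 0.00258), from 9583 ± 774 to 7119.9 ± 481 (SD, n = 3). Its annotated transcript holds the sequence of Exosc6, which is listed at 0 in every library. Of the 31-base words of the Aars transcript, 22.7% also occur in transcripts of other genes, Exosc6 first among them. Reads of Exosc6 may thus be counted as Aars. Their part in the Aars values, here and in the ratios and levels below, was not tested. Sars, the serine enzyme, was the most abundant member by value, with 12632, 13208 and 13239.8 in NaCl and 10052, 9973 and 9707 with itaconate. Its replicates lay close together, and it fell by 0.39 ± 0.076 (adjusted p = 0.00157).

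The 2 chains of phenylalanyl-tRNA synthetase differed in their calls. Farsb, the beta chain, fell by 0.47 ± 0.13 (adjusted p = 0.0151), while Farsa, the alpha chain, was at 0.16 ± 0.13 (adjusted p = 0.359). Farsb values were 1865, 1493 and 1315 with itaconate and 2407, 2134 and 1878 in NaCl, so the lowest control lay just above the highest itaconate library. Exons of Sgpp2 on the opposite strand overlap 9.47% of the Farsb exon bases. Farsb missed the threshold with itaconate replicate 2 left out (adjusted p = 0.0594), and likewise for NaCl replicate 1 (0.0636) and NaCl replicate 2 (0.0517), and its adjusted p ran from 6.00e-04 to 0.0895 across alternatives. The difference between the chains was not tested.

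The free enzymes that did not pass included Vars, for valine, at 0.016 ± 0.091 and the dual-compartment gene Gars, for glycine, at −0.082 ± 0.13. Cars, for cysteine, was at −0.12 ± 0.13. Hars (−0.30 ± 0.11, adjusted p = 0.0568) and Yars (−0.27 ± 0.11, adjusted p = 0.0727), for histidine and tyrosine, missed the threshold narrowly. Without itaconate replicate 1 both passed (adjusted p = 0.0223 for Hars and 0.0128 for Yars). That library had the highest value of its group for 18 of the 19 cytosolic genes, and NaCl replicate 1 for 15 of them, against 6 of 16 mitochondrial genes in each.

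**Figure D2:**
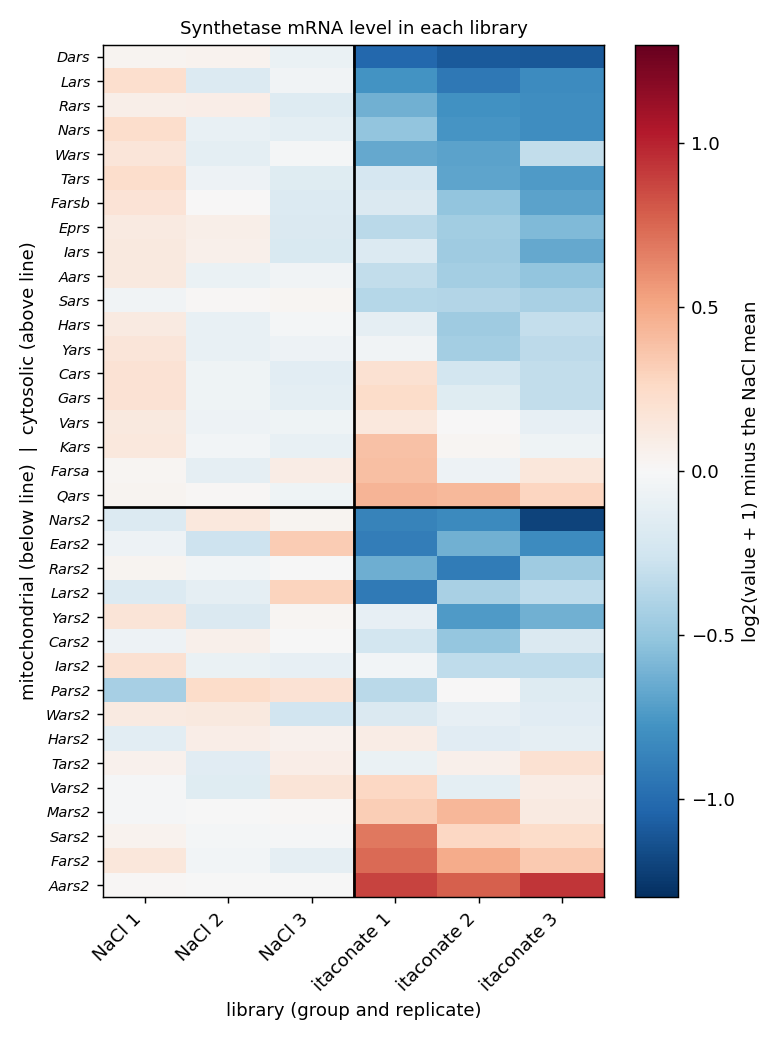
Log2(value + 1) of each synthetase gene minus its mean in the NaCl libraries, for each library, with cytosolic genes above the line and mitochondrial genes below it. Dars, Lars, Rars and Nars are low in all 3 itaconate libraries, and Aars2 is high in all 3.

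Mitochondrial synthetases moved in both directions. Of 16 members 4 fell, 2 rose and 10 did not pass, a share of passing genes close to that of all tested genes (36%). Their median log2 fold change was −0.16. The summed values were 9909.7 to 10354 with itaconate and 10728 to 11958 in NaCl. Much of this lower sum came from Lars2. Its mean went from 2922 in NaCl to 1990 with itaconate, while the mean sum went from 11245 to 10105.5. Without NaCl replicate 3 the counts were 2 down and 1 up. Without itaconate replicate 1 or NaCl replicate 2, 1 rose, and without itaconate replicate 3, 4 rose.

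Aars2, the mitochondrial alanine enzyme, on chromosome 17 at 45506841 to 45520843, rose most. Its values were 733, 687 and 764 with itaconate and 403, 398 and 398 in NaCl. The controls differed by little and lay far below the itaconate libraries (log2 fold change 0.86 ± 0.12, adjusted p = 1.29e-04). Fars2, for phenylalanine, rose from 349, 307 and 291 to 527, 441 and 398 (log2 fold change 0.52 ± 0.15, adjusted p = 0.0162). The Fars2 groups did not overlap, but the gene no longer passed with itaconate replicate 1 left out (adjusted p = 0.0708), and likewise for NaCl replicate 2 (0.0536) and NaCl replicate 3 (0.0628), and its adjusted p ran from 0.00570 to 0.0708 across alternatives. Sars2 and Mars2, for serine and methionine, were at 0.40 ± 0.16 (adjusted p = 0.0645) and 0.29 ± 0.13 (adjusted p = 0.1005). Both passed without itaconate replicate 3 (adjusted p = 0.0389 for Sars2 and 0.0442 for Mars2).

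Nars2, the mitochondrial asparagine enzyme, on chromosome 7 at 96951505 to 97064758, showed the largest fall of the class. Its values were 204, 209 and 161 with itaconate and 329, 409.9 and 383 in NaCl, with no overlap. The log2 fold change was −0.97 ± 0.17 (adjusted p = 7.87e-04). Ears2, for glutamate, had values of 95.4, 115 and 101 with itaconate and 170.3, 148 and 225 in NaCl. It fell by 0.78 ± 0.22 (adjusted p = 0.0136), but did not pass without NaCl replicate 3, where the adjusted p was 0.0777, the highest of 0.00963 to 0.0777 across alternatives. Rars2, for arginine, fell by 0.67 ± 0.15 (adjusted p = 0.00364), from 469.6 ± 11.8 to 297 ± 45.5 (SD, n = 3).

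Lars2, for leucine, had the highest level per length of the mitochondrial class in NaCl. It had values of 1524, 2152 and 2295 with itaconate and 2555, 2670.1 and 3542 in NaCl. It fell by 0.56 ± 0.16 (adjusted p = 0.0134), but not without NaCl replicate 3 (adjusted p = 0.0701), and its adjusted p ran from 4.55e-04 to 0.0976 across alternatives. The best local alignment of Lars2 transcripts with mt-Rnr2, the mitochondrial 16S rRNA, had 128 identical bases over 203 aligned columns. No background was made for it, so it does not by itself show a likeness. Of the 31-base words of Lars2, 0 occur in mt-Rnr2. The mt-Rnr2 values, 6042 ± 446 with itaconate and 11986 ± 1574 in NaCl (SD, n = 3), were also lower (log2 fold change −0.98, adjusted p = 2.24e-05), and their part in the Lars2 result was not tested.

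The other mitochondrial enzymes did not pass. Yars2 was at −0.49 ± 0.18 (adjusted p = 0.0539) and passed without itaconate replicate 1 (adjusted p = 0.00923). Cars2 was at −0.31 ± 0.12 (adjusted p = 0.0681) and passed without itaconate replicate 3 (0.0422). Iars2, Pars2, Wars2 and Hars2, for isoleucine, proline, tryptophan and histidine, lay between −0.23 and −0.056, and Tars2 and Vars2 at 0.059 and 0.081. Of the exon bases of Iars2, 24.2% overlap other genes, chiefly Rab3gap2 on the opposite strand, and the strand setting of the counting is not given in the sources used here. Hars and Hars2 overlap head to head on opposite strands by 195 exon bases.

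Compared as classes, the cytosolic median log2 fold change lay 0.27 below the mitochondrial one (difference −0.27). That difference ran from −0.35 to −0.19 when each library was left out in turn. The SD of the libraries around their group means was 0.12 for it. Relative to the NaCl mean, the cytosolic median was −0.19, −0.45 and −0.42 in itaconate replicates 1, 2 and 3 and 0.13, −0.056 and −0.089 in the controls. The mitochondrial median was −0.095, −0.14 and −0.16 in itaconate replicates 1, 2 and 3 and 0.00030, −0.031 and 0.0198 in the controls. Within libraries, the cytosolic median lay below the mitochondrial one by less in itaconate replicate 1 than in NaCl replicate 3. The groups thus overlapped in this difference. No test is given for these medians, because the genes were listed with results known. The typical size of change was closer, with a median absolute log2 fold change of 0.43 for the cytosolic and 0.35 for the mitochondrial genes. In each class 6 genes changed by more than 0.5 in either direction. Groups did not overlap for 12 cytosolic genes, 11 of them lower, and for 9 mitochondrial genes, 5 of them lower. Over all tested genes groups did not overlap for 48.4%, 24.2% lower and 24.2% higher.

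For 15 amino acids the cytosolic gene could be set against its mitochondrial partner within each library, a ratio that does not depend on how libraries are scaled. The log2 ratio was lower with itaconate for 11 and higher for 4, and the groups did not overlap for 5, all lower. For single genes, groups did not overlap for 48.4% of all tested genes. No such share was worked out for ratios, so the count of 5 has no background of its own. The alanine pair differed most. The log2 ratio of Aars to Aars2 was 4.70, 4.50 and 4.54 in NaCl and 3.38, 3.35 and 3.13 with itaconate, a difference of −1.29. For serine the ratio changed by −0.79, for phenylalanine, with the mean of both chains, by −0.68, for histidine by −0.24 and for isoleucine by −0.20. With 3 libraries against 3 the exact two-sided permutation test cannot go below p = 0.1, which these 5 pairs reached (adjusted p = 0.3 over the 15 pairs), so no pair could pass. Asparagine, arginine, leucine and glutamate are served by genes of which both members fell, and their ratios changed by 0.27, −0.068, −0.28 and 0.32, with overlapping groups. Eprs enters the ratios for both glutamate and proline.

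**Figure D3:**
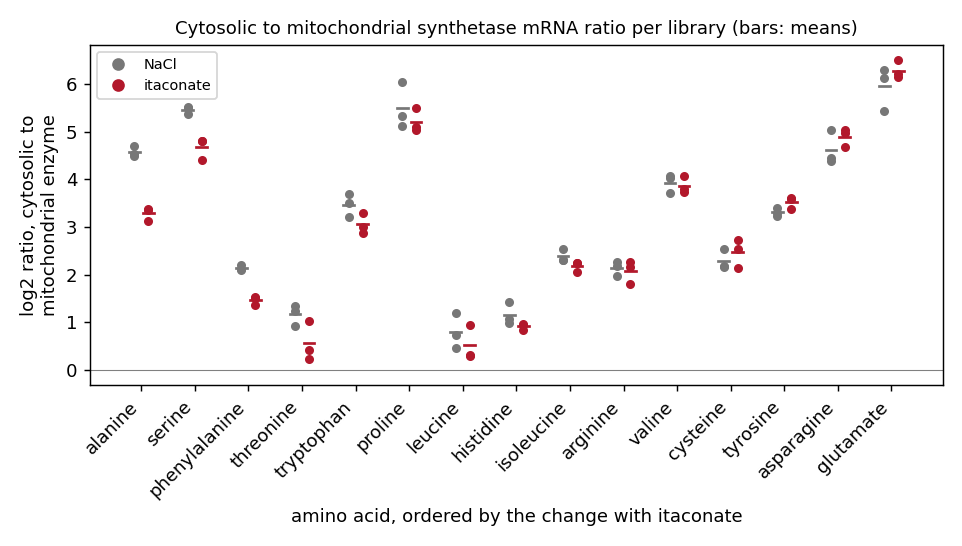
Log2 ratio of the cytosolic to the mitochondrial synthetase value per amino acid in each library, with NaCl in grey, itaconate in red and bars for the means of 3 libraries. The alanine, serine and phenylalanine ratios are lower in every itaconate library than in any control.

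Levels can be compared between genes per kilobase of transcript, taking the principal isoform of GENCODE release M21. In NaCl the cytosolic members ran from 500.3 (Farsa) to 3649 (Sars) per kilobase, with a median of 1667. Mitochondrial members ran from 37.3 (Mars2) to 750.4 (Lars2), with a median of 153. The place of Mars2 rests on its transcript of 11.3 kilobases, the longest of the members. Its NaCl mean before division by length (421) lay above those of, for example, Ears2 (181) and Wars2 (234). At the top of the order, Sars (3649 ± 95.9) and Nars (3377 ± 487; SD, n = 3) did not differ beyond their spread in NaCl. With itaconate Sars (2776 ± 50.5) and Gars (2662 ± 548) were highest. Lars2 and Tars2 were the mitochondrial members whose NaCl level reached into the cytosolic range. Mitochondrial members made 9.80% ± 1.03 of the summed synthetase values in NaCl and 10.96% ± 1.03 with itaconate, a difference about as large as the spread.

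**Figure D4:**
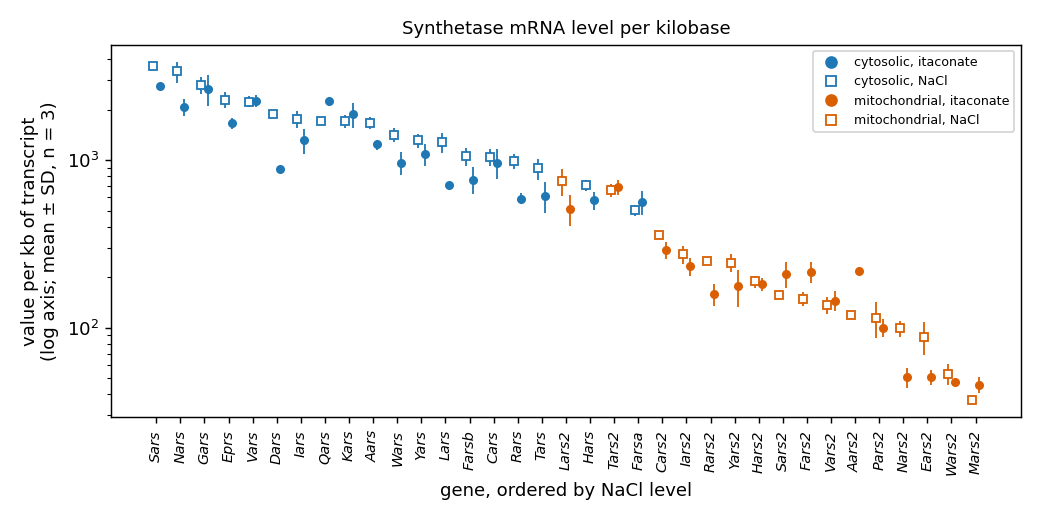
Value per kilobase of transcript on a log axis for each synthetase gene, as mean ± SD of 3 libraries, with open squares for NaCl and filled circles for itaconate. Cytosolic genes (blue) fill the upper part, from 500.3 to 3649 in NaCl, and mitochondrial genes (orange) the lower, from 37.3 to 750.4.

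Base composition moved with the fold change among the members. The 15 members that fell had a median transcript GC content of 47.2%, the 3 that rose 56.6% and the 17 others 53.7%. Across the 35 genes, which share libraries and are not independent, Pearson's r of GC content with log2 fold change was 0.50, against 0.072 across 12953 tested genes with a GC value. With the trends of GC content and length removed from each library, 11 cytosolic members fell and 1 rose, 4 mitochondrial members fell and 2 rose, and no member changed its call. The cytosolic median was then −0.39 and the mitochondrial −0.14. These trends were fitted over all genes, where r was 0.072, so their removal says little about the relation among the members. The part of base composition in the calls was not tested.

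**Figure D5:**
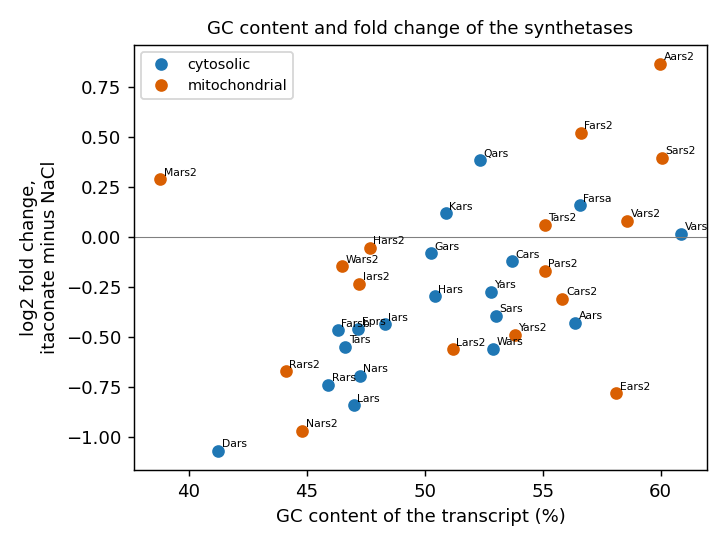
Log2 fold change (itaconate minus NaCl) against the GC content of the principal transcript in percent, for the 35 synthetase genes, cytosolic in blue and mitochondrial in orange. Dars, with 41.2% GC, lies lowest and Aars2, with 60.0%, highest, while Mars2 (38.8%) and Ears2 (58.1%) lie away from that trend.

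Promoter windows from RefSeq (GRCm38.p6), 250 bases before to 50 after the start, were found for 26 of the 36 listed genes, 12 cytosolic and 14 mitochondrial with 15 windows. Both strands were searched for TGATGNAA, the core of the element that ATF4 binds with C/EBP partners, and for CACGTG, the E-box that MYC binds with MAX. TGATGNAA was present in 5 of 12 cytosolic windows (Aars, Gars, Iars, Tars and Yars) and in 0 of 15 mitochondrial windows, against 3.97% of 32851 windows of all genes. CACGTG was present in 4 cytosolic windows (Aars, Farsb, Iars and Tars) and 1 mitochondrial window (Ears2), against 7.15% of all. The stretches before the start that hold a match are shown 5′ to 3′ on the strand of the gene, with matches in capitals, because they set the members with either element beside their fold changes.
Aars, chr8:111033666-111033767, plus strand: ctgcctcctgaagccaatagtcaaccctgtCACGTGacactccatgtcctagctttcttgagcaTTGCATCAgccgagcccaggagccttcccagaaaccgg
Gars, chr6:55037941-55038000, plus strand: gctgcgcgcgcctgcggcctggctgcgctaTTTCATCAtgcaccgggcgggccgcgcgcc
Tars, chr15:11399659-11399703, minus strand: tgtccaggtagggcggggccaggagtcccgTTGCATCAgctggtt
Iars, chr13:49682031-49682096, plus strand: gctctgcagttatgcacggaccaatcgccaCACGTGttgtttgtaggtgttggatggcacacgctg
Farsb, chr1:78488901-78488966, minus strand: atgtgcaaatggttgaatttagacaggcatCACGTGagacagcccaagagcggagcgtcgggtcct

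In Aars, Gars and Tars the element is in the reverse orientation, and the matches of Iars and Yars, and a further one of Aars, lie in the 50 bases after the start. Of the 5 genes with TGATGNAA, Aars (−0.43), Iars (−0.44) and Tars (−0.55) fell, while Gars (−0.082) and Yars (−0.27) did not pass. All 5 genes with CACGTG fell, Aars, Farsb (−0.47), Iars, Tars and Ears2 (−0.78). Beside these counts, 11 of 19 cytosolic members, 15 of all 35 members and 17.8% of all tested genes fell. Aars, Iars and Tars hold both sequences, so the counts for each sequence share these genes. The calls of Farsb, Iars, Tars and Ears2 were each lost in some alternative setting. In Tars and Ears2 the CACGTG match lies after the start. The share of all genes with either sequence that fell was not worked out. Dars, whose fall was the largest, has neither sequence in its window. A match describes the letters of the window and is not evidence of binding.

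The other genes of the amino acid response and of translation were counted in lists. Of 23 genes of ATF4 and its metabolic targets, chosen without synthetases, 13 fell and 0 rose (median log2 fold change −0.61). Over all tested genes 17.8% were lower and 18.2% higher. Atf4 itself went from 13826, 13226 and 13009 in NaCl to 8495, 8309 and 9035 with itaconate (log2 fold change −0.63 ± 0.078, adjusted p = 7.28e-05). The lipoprotein receptor gene Vldlr (−2.22), the pseudokinase gene Trib3 (−1.77) and Ddit3, which encodes CHOP (−1.22), had the smallest p-values. Asns, which makes asparagine and is a classic ATF4 target, was at −0.29 ± 0.13 and did not pass (adjusted p = 0.101). Further amino acid and one-carbon enzyme genes of the list that did not pass were Phgdh (0.0038), Psat1 (−0.20), Psph (−0.16) and Shmt2 (−0.24). Mthfd2 (−0.14), Aldh18a1 (−0.25) and Cbs (0.74) did not pass either, whereas Pycr1 (−0.65), Cth (−1.04) and Gpt2 (−0.51) fell. Atf4, Asns and these enzyme genes were named after their values were seen. In the list of eIF2 and its kinases 4 of 16 fell and 2 rose, led by the phosphatase subunit gene Ppp1r15a (−1.295), the ER stress kinase gene Eif2ak3 (0.84) and the double-stranded RNA kinase gene Eif2ak2 (−1.06), a share of passing genes close to the 36% over all tested genes. The GCN2 kinase gene Eif2ak4, also named after its value was seen, was at 0.039 ± 0.11 (adjusted p = 0.807). Leaving out each library, 2 to 5 genes of that list fell (2 without itaconate replicate 3, NaCl replicate 1 or NaCl replicate 2) and 1 or 2 rose (1 without itaconate replicate 1 or 2 or NaCl replicate 2 or 3), and 13 to 16 of the ATF4 list fell.

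Over all tested genes 36% passed, 17.8% lower and 18.2% higher, and the counts that follow stand beside that share. Of 15 amino acid transporter genes 6 fell and 3 rose, with the cationic carriers Slc7a3 (−1.21) and Slc7a1 (−0.79) and the large neutral carrier Slc7a5 (−0.97) down. Without itaconate replicate 2, 1 transporter rose. Of 8 genes of cytosolic elongation and release 2 fell, the elongation factor gene Eif5a (−0.57 ± 0.099) and the release factor gene Etf1 (−0.41 ± 0.11), and 2 rose, with Eef1g (0.26 ± 0.082) having the smaller p. The rises numbered 0 without NaCl replicate 2, NaCl replicate 3 or itaconate replicate 2 and 1 without itaconate replicate 1 or NaCl replicate 1. Without NaCl replicate 1, 1 gene of that list fell. On the mitochondrial side 2 of 10 translation factors fell, the initiation factor gene Mtif2 (−0.57 ± 0.11) and the ribosome recycling factor gene Gfm2 (−0.43 ± 0.10). Of the 4 genes that amidate glutamyl-tRNA or formylate methionyl-tRNA in mitochondria, Gatb fell, from 187 ± 14.8 to 96.6 ± 11.4 (SD, n = 3; log2 fold change −0.95 ± 0.20, adjusted p = 0.00269), and 3 did not pass. Without itaconate replicate 3 or NaCl replicate 1, 1 of those 3 rose. In the main fit both mitochondrial lists passed less often than the 36% of all tested genes, so their counts show nothing particular to them.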

How the data were processed

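RNA-seq of 3 itaconate and 3 NaCl libraries was used, grouped by title. The authors deposited 1 table with a normalized estimated count for each gene symbol, a non-negative expression signal. STAR 2.7.0f, RSEM 1.3.0 and mm10 are named per the submitters' processing notes. Not given in the sources used here are the annotation, the size-factor tool and the strand setting. Divided by the commonest low value of its library, taken as 1 estimated read, between 79.98% and 82.04% of values above 0 came within 0.02 of a whole number, so no count model was used. Of entries sharing a symbol (107 symbols) the highest mean kept it. Genes with a mean of at least 10 were fitted as log2(value + 1), which understates changes of low genes, with limma 3.58.1 in R 4.3.3 (intensity trend, no covariate, two-sided, Benjamini-Hochberg at 0.05) and tested on simulated data. Ratios were tested with exact permutation (scipy 1.17.1). Other settings are in the closing section. Members and lists were chosen with earlier results of these data known. Named were all members and up to 3 genes of each other list by p, apart from genes said to be named after their values were seen.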

Additional observations from a re-analysis of the deposited data

How the results depend on the processing

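All 35 members were refitted under 16 alternatives: pseudocounts of 0.1 and 10, no filter or a mean of at least 100, scaling by trimmed means of M-values, the replicate number as a block, quantile normalization, no intensity trend, robust variances, length and GC trends removed, and each of the 6 libraries left out. Of the 18 called members 12 kept their call in every setting, 6 lost it in some, and 7 of 17 others gained one. No called member changed sign. The cytosolic count that fell ran from 8 (no intensity trend, where Farsb, Iars and Tars did not pass) to 13 and the cytosolic median from −0.48 to −0.32; 1 cytosolic member rose in each setting. With the replicate block 7 mitochondrial members fell and 3 rose (13 and 1 of the cytosolic class). The labels do not pair the numbers, and the main fit did not pair them. Same-numbered libraries correlated in their deviations with r = 0.146, 0.038 and 0.128, and each library correlated best with its own number. The cytosolic sums also fell from replicate 1 to 2 to 3 in both groups. Whether same-numbered libraries share an origin cannot be told. If they do, the SDs and overlaps given here include a spread that the numbers share. Over all genes the block raised calls to 2855 higher and 2781 lower. Leaving out 1 library, mitochondrial members that fell numbered 2 to 5 and that rose 1 to 4, with a median of −0.18 to −0.069. After quantile normalization that median was −0.11. The cause was not tested. In the other lists 66 of 384 counts moved by over 1.5 times. With 3 libraries a group, the smallest change of a member that passed was 0.38 on the log2 scale and the largest that did not was 0.49.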

Other observations

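Genes that make and mature tRNA passed the main fit no more often than the 36% of all tested genes (17.8% lower, 18.2% higher). Their counts in that fit thus show nothing particular to them. Of 20 tested genes of tRNA maturation and export 4 fell and 2 rose, with the RNase P subunit gene Rpp38 (−1.001 ± 0.22), the tRNA export receptor gene Xpot (−0.45 ± 0.10) and the La protein gene Ssb (−0.30 ± 0.091) having the smallest p-values. Of 20 genes of RNA polymerase III and its factors 2 fell and 2 rose, among them Polr3k (−0.63 ± 0.11), Gtf3c1 (0.41 ± 0.087) and Polr3a (−0.50 ± 0.12). Of 11 genes of mitochondrial tRNA modification 2 fell, the methyltransferase gene Nsun3 (−0.86 ± 0.24) and Hsd17b10 (−0.34 ± 0.10). Of 6 genes of the selenocysteine tRNA path 1 fell, Sepsecs (−0.51 ± 0.13), and of 7 proofreading and synthetase-like genes 2 fell, Ptrh2 (−0.50 ± 0.13) and Dtd2 (−0.62 ± 0.22). With the replicate block 7 RNA polymerase III genes fell and 3 rose, where 2781 of all 13180 tested genes fell and 2855 rose. With length and GC trends removed 5 of the list fell (2265 of 12953 over all genes). With a mean of at least 100, 5 also fell (2047 of 10017 over all genes). The counts also moved when single libraries were left out, to 2 or 3 falling and 0 or 1 rising for tRNA maturation (2 falling without itaconate replicate 2 or NaCl replicate 1, and at most 1 rising whichever library was left out). RNA polymerase III had 5 falling without itaconate replicate 1 and 4 without itaconate replicate 3, and 1 rising when any library but itaconate replicate 3 was left out. Mitochondrial tRNA modification had 0 falling without itaconate replicate 2, 3 without itaconate replicate 3 and 1 without itaconate replicate 1, NaCl replicate 1 or NaCl replicate 3. The proofreading list had 1 falling when any library but itaconate replicate 3 was left out, and 1 rising without itaconate replicate 3 or NaCl replicate 1. The 22 mitochondrial tRNAs themselves summed to at most 1.87 in any library, and 19 of them were listed at 0 in all. Whether these libraries capture such RNAs was not tested, so the values do not show that the tRNAs were absent.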
